A study of Homo sapiens with 3 samples.

Results

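The genes described here are 10 regulators of the RAS switch: 7 RAS exchange factors (RASGRF1, RASGRF2, RASGRP1, RASGRP2, RASGRP3, SOS1 and SOS2) and 3 RAS GTPase-activating proteins, or GAPs (NF1, RASA1 and RASAL2). They were chosen by name, with earlier results of these data known, and read on every array through the probe set that names only that gene. Of the 10 genes, 9 were measured, each by 1 probe set, among 22395 genes measured in all. The platform annotation used here pairs no probe set of its own with RASA1, which is not analysed here. A second probe set against which to check a member's value was therefore lacking for all 9.

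The 3 arrays come from HEK293T, a widely used cell line of human embryonic kidney origin. The cells had been stably transduced with lentivirus carrying TRAF7 G536S, TRAF7 wild type or the empty pCDF1 vector, with 1 array for each. TRAF7 is a ubiquitin ligase of the TRAF family that has been studied in MAP kinase signalling, and G536S is a point mutation in it. All 3 cell populations went through puromycin selection. Whether each population was a pool or a clone is not given in the sources used here. With 1 array per group there is no replicate check, and no p-value or standard error is given. A difference between 2 arrays cannot be told apart from one between 2 cultures or 2 RNA preparations, nor a shift in every cell from a shift in some of them.

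RAS proteins pass signals from cell-surface receptors to the RAF-MEK-ERK kinases while they hold GTP. Exchange factors load them with GTP, and GAPs speed the hydrolysis that returns them to the GDP-bound state. The SOS proteins are brought to receptor tyrosine kinases by the adaptor GRB2, the RASGRF proteins respond to calcium and calmodulin and are best known from neurons, and the RASGRP proteins bind diacylglycerol and are best known from blood cells. NF1, or neurofibromin, is a tumour suppressor whose loss causes neurofibromatosis, and RASAL2 is a further GAP of this kind.

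Promoter sequence is shown for 3 members: RASGRF2, because it had the largest difference between arrays, and NF1 and SOS2, because both were somewhat brighter on both TRAF7 arrays than on the empty vector array. RASGRP1, which is near background, also read higher on both TRAF7 arrays and is not shown. Each run gives the 250 bases before the gene's start in RefSeq on GRCh38.p14, read 5′ to 3′ on the gene's strand. RASGRF2 lies on the plus strand (chr5:80960113-80960362), SOS2 on the minus strand (chr14:50231579-50231828) and NF1 on the plus strand (chr17:31094727-31094976). Capitals mark matches, on either strand, to 6 motifs: the AP-1 site TGANTCA, the cyclic AMP response element (CRE) TGACGTCA, its core TGACG, the E-box CACGTG, the TATA box TATAAA and the GC box GGGCGG.
RASGRF2: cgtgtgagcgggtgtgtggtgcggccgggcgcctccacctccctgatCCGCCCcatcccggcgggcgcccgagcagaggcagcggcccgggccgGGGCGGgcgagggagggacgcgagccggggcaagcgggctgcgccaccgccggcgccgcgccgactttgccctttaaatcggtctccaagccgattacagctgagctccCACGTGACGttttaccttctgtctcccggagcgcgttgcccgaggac
SOS2: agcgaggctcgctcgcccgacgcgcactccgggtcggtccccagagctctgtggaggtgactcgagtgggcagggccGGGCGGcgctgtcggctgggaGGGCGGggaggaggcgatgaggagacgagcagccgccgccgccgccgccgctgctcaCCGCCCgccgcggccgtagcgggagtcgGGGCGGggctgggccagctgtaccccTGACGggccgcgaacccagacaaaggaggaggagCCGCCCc
NF1: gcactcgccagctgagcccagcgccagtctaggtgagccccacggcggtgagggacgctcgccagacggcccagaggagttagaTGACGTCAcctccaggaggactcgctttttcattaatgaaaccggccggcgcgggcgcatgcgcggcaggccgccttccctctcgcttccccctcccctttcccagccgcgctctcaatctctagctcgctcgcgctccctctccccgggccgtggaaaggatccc

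The RASGRF2 window, 72.8% G and C, held an E-box from position -47 (counted back from the start) that overlaps a CRE core from position -43, and 2 GC boxes. The NF1 window held a full CRE from position -166, which contains the core on both strands, and no GC box. The SOS2 window held 5 GC boxes and a CRE core from position -41. Over all 35116 promoter windows of the same length, 6.35% held the E-box, 1.65% the CRE, 21.2% the CRE core and 42.6% the GC box. Of the 10 genes, 9 had a window, 14 windows in all. The AP-1 letters, which 6.57% of all windows hold, occurred in 0 of the 14. These matches describe letters in a short window and say nothing about which factors bind there.

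All values below are RMA intensities on the log2 scale, as deposited. As a check of the labels, TRAF7 itself stood at 7.35 on the TRAF7 G536S array, 8.11 on the TRAF7 wild type array and 5.66 on the empty vector array. This sets both TRAF7 arrays apart from the empty vector array, and does not tell the constructs from each other. TRAF7 differed by -0.76 between TRAF7 G536S and TRAF7 wild type. A difference between the constructs therefore cannot be told apart from a difference in TRAF7 level. Genes whose mean over the 3 arrays reached the median of all gene means (1.21) were taken as the background, 11198 genes. The empty vector array was dimmer among them, with a median of 2.81, against 2.93 with TRAF7 G536S and 2.91 with TRAF7 wild type. The gene-by-gene differences from the empty vector had a median of 0.10 with TRAF7 G536S and 0.08 with TRAF7 wild type. Quantile normalization moved these medians of differences by -0.13 and -0.11, and small differences from the empty vector should be read against that shift. Brightness depends on the probe as well as on the RNA, so members are compared between arrays and not with each other. Of 6 genes reported as HEK293 markers, 4 passed the filter level. The intermediate filament gene VIM read 4.74 with TRAF7 G536S, 5.10 with TRAF7 wild type and 4.34 with the empty vector, and the cadherin CDH2 read 4.71, 4.62 and 4.54. The keratin KRT8 (0.87, 0.85 and 0.98) and the neurofilament NEFM (0.99, 0.89 and 1.16) were under it.

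**Figure D1:**
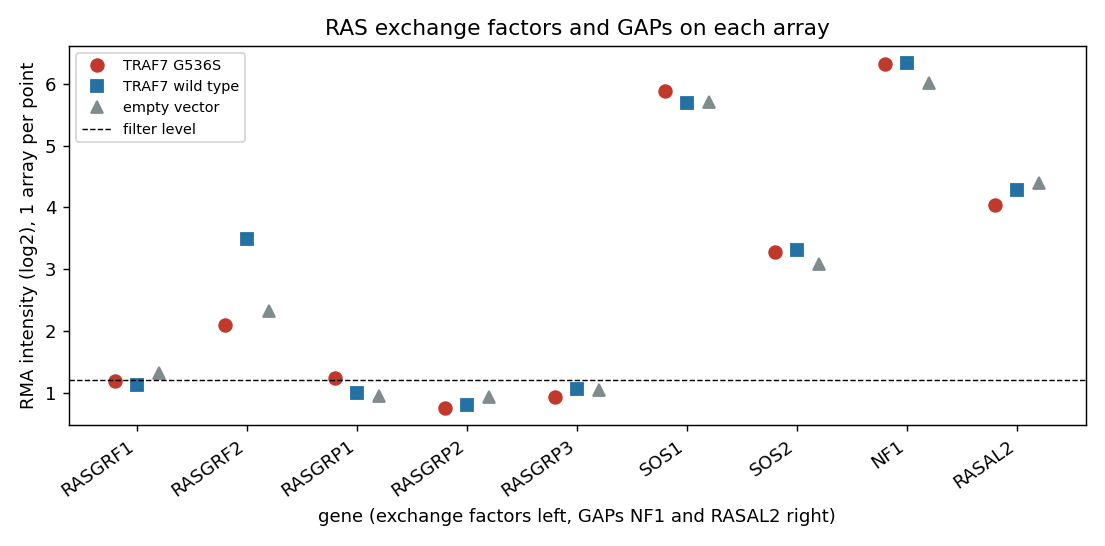
RMA intensity (log2) of the 9 measured members, 1 point per array, with TRAF7 G536S, TRAF7 wild type and empty vector from left to right for each gene and the filter level of 1.21 as a dashed line. RASGRF2 stands at 3.49 on the TRAF7 wild type array, above its values of 2.10 and 2.33, while the other members' 3 points lie within 0.36 of each other.

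Of the 9 measured members, 6 reached the filter level and 3 did not. RASGRF2, SOS1, SOS2, NF1 and RASAL2 were above it on each array. RASGRF1 was only just inside, with a mean of 1.22, and passed through its empty vector value alone. RASGRP1 was the nearest outside, with a mean of 1.06. RASGRP2 and RASGRP3 were further below, with means of 0.84 and 1.01.

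RASGRF2, which encodes a calcium-responsive exchange factor that can act on RAC as well as RAS, was the one member past 1.5-fold in any comparison. That is 1 of the 6 members passing the filter, where 13.6% of all genes passing it were past 1.5-fold in some comparison. The RASGRF2 probe set read 2.10 with TRAF7 G536S, 3.49 with TRAF7 wild type and 2.33 with the empty vector. The TRAF7 wild type array was thus high, and the TRAF7 G536S array lay slightly below the empty vector. The log2 difference was 1.16 between TRAF7 wild type and empty vector, a fold of 2.24. Between TRAF7 G536S and empty vector it was -0.23, or -0.38 after quantile normalization. Between TRAF7 G536S and TRAF7 wild type it was -1.39, 2.62-fold lower with TRAF7 G536S. The 3 differences come from the same 3 arrays and do not support one another.

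Among the genes passing the filter, 41 had a higher difference than RASGRF2 between TRAF7 wild type and empty vector, and 10 had a lower one between TRAF7 G536S and TRAF7 wild type. Its range over the 3 arrays, 1.39, was wider than that of 99.5% of these genes. The other members' ranges lay between 0.14 (RASGRP3) and 0.36 (RASAL2).

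RASGRF1, the closest relative of RASGRF2, was not high on the TRAF7 wild type array. It read 1.20 with TRAF7 G536S, 1.13 with TRAF7 wild type and 1.32 with the empty vector. All 3 values lie near the filter level, where differences are compressed. The empty vector array was the highest and the only one above that level. Its differences from the empty vector were -0.13 with TRAF7 G536S and -0.19 with TRAF7 wild type.

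SOS1, the ubiquitous exchange factor that couples receptors to RAS, read 5.88 with TRAF7 G536S, 5.68 with TRAF7 wild type and 5.70 with the empty vector. The TRAF7 G536S array was slightly high, by 0.17 over the empty vector and by 0.19 over TRAF7 wild type, and the difference between TRAF7 wild type and empty vector was -0.02. Quantile normalization took the first of these to 0.02 and cyclic loess took it to 0.04, so it rests on the scaling of the arrays, while the difference between the TRAF7 arrays was 0.145 and 0.165 under these settings. SOS2, its paralog, read 3.28 with TRAF7 G536S, 3.31 with TRAF7 wild type and 3.08 with the empty vector. Here the empty vector array was low, and the differences from it were 0.20 with TRAF7 G536S and 0.23 with TRAF7 wild type. After quantile normalization these shrank to 0.06 and 0.08.

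The RASGRP genes were dim on every array. RASGRP1, known from T cells, read 1.23 with TRAF7 G536S, 0.99 with TRAF7 wild type and 0.95 with the empty vector. RASGRP2, known from platelets, where it acts mainly on RAP, read 0.76, 0.81 and 0.94, and RASGRP3, known from B cells and endothelium, read 0.93, 1.07 and 1.04 in the same order of arrays. Only RASGRP1 on the TRAF7 G536S array exceeded the filter level, and its difference from the empty vector was 0.29. Of 9 measured leukocyte markers, 2 passed the filter and 0 were 1.5-fold apart in any comparison. The brightest was CD68, a lysosomal protein of macrophages, which was above the filter level on each array at 2.37 with TRAF7 G536S, 2.46 with TRAF7 wild type and 2.41 with the empty vector. PTPRC, which encodes the pan-leukocyte antigen CD45, was under it at 0.83, 0.84 and 0.95 in that order. Of 4 measured endothelial markers 0 passed the filter, and the brightest, VWF, read 0.93, 0.95 and 1.02. Of 4 measured fibroblast markers 1 passed, the collagen gene COL1A1, at 2.47, 2.60 and 2.59.

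Of the GAPs, NF1 read 6.32 with TRAF7 G536S, 6.33 with TRAF7 wild type and 6.01 with the empty vector. Both TRAF7 arrays were brighter and differed from each other by -0.01. The differences from the empty vector were 0.32 with TRAF7 G536S and 0.33 with TRAF7 wild type, or 0.22 and 0.24 relative to the median gene. After quantile normalization they were 0.18 and 0.24. RASAL2 read 4.03 with TRAF7 G536S, 4.28 with TRAF7 wild type and 4.39 with the empty vector, so that the TRAF7 G536S array was the lowest. Its differences from the empty vector were -0.36 with TRAF7 G536S and -0.12 with TRAF7 wild type, and that between TRAF7 G536S and TRAF7 wild type was -0.24. After quantile normalization the differences from the empty vector were -0.50 and -0.25, still short of 1.5-fold, which is 0.58 on this scale.

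**Figure D2:**
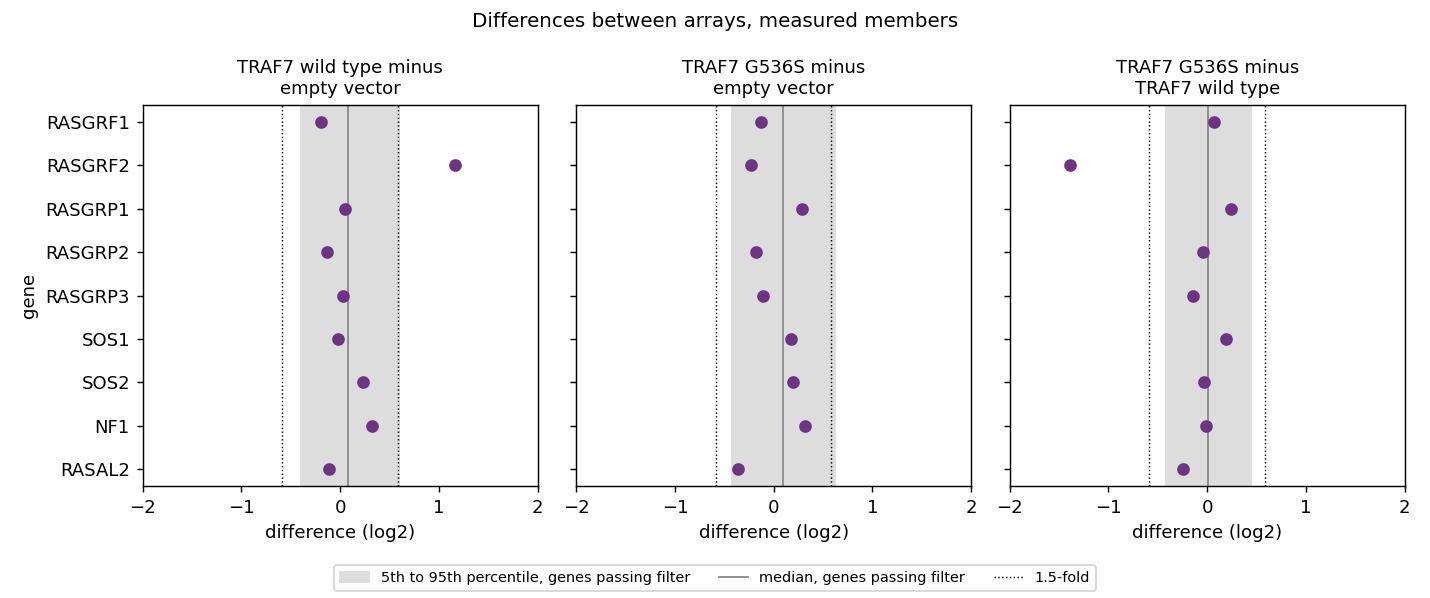
Log2 difference of each of the 9 measured members in the 3 comparisons, 1 point per gene, against the 5th to 95th percentile (grey) and median (line) of the 11198 genes passing the filter; dotted lines mark 1.5-fold. RASGRF2 lies outside the grey band at 1.16 (TRAF7 wild type minus empty vector) and at -1.39 (TRAF7 G536S minus TRAF7 wild type), and the other 8 members lie within it in each panel.

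Between TRAF7 wild type and empty vector, 1 of the 6 members passing the filter was at least 1.5-fold higher and 0 were lower, where 5.42% of all genes passing the filter were higher and 1.79% lower. The 1 member, RASGRF2, was also past 2-fold, which 0.795% of the background were in that direction. Between TRAF7 G536S and empty vector, 0 of the 6 were past 1.5-fold in either direction, against 6.07% higher and 2.08% lower in the background. Between TRAF7 G536S and TRAF7 wild type, 0 were higher and 1, RASGRF2 again, was at least 1.5-fold lower, against 2.17% higher and 1.81% lower in the background. At 2-fold lower the background share was 0.268%. After quantile normalization the background shares past 1.5-fold against the empty vector were 3.10% higher and 3.42% lower with TRAF7 wild type, and 3.15% higher and 4.45% lower with TRAF7 G536S.

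Over the 9 measured members the median difference was 0.03 between TRAF7 wild type and empty vector, -0.11 between TRAF7 G536S and empty vector and -0.03 between TRAF7 G536S and TRAF7 wild type. Over all 22395 measured genes the medians were -0.0007, -0.0047 and -0.0033. Members above 0 numbered 5, 4 and 3 of the 9 in these comparisons. Exchange factors and GAPs did not separate: of the 2 measured GAPs, NF1 was above the empty vector and RASAL2 below it with both constructs.

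The genes passing the filter whose 2 differences from the empty vector lay nearest to those of RASGRF2, by Euclidean distance over these 3 arrays, were UBE2Q2P16, GALNT6, TNC, CNTN1 and PRICKLE3, at distances of 0.09 to 0.30. UBE2Q2P16, named as a pseudogene, read 1.29 with TRAF7 G536S, 2.66 with TRAF7 wild type and 1.44 with the empty vector. TNC, which encodes the matrix protein tenascin C, read 1.49, 2.98 and 1.92 in the same order. GALNT6, an enzyme that starts mucin-type O-glycosylation, read 1.56, 2.70 and 1.59, and CNTN1, the neuronal adhesion protein contactin, read 1.29, 2.36 and 1.44. PRICKLE3, of the Prickle family of planar polarity proteins, read 2.16, 3.30 and 2.43. All 5 are high on the TRAF7 wild type array alone, as the search required, and with 3 arrays such likeness is a description.

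**Figure D3:**
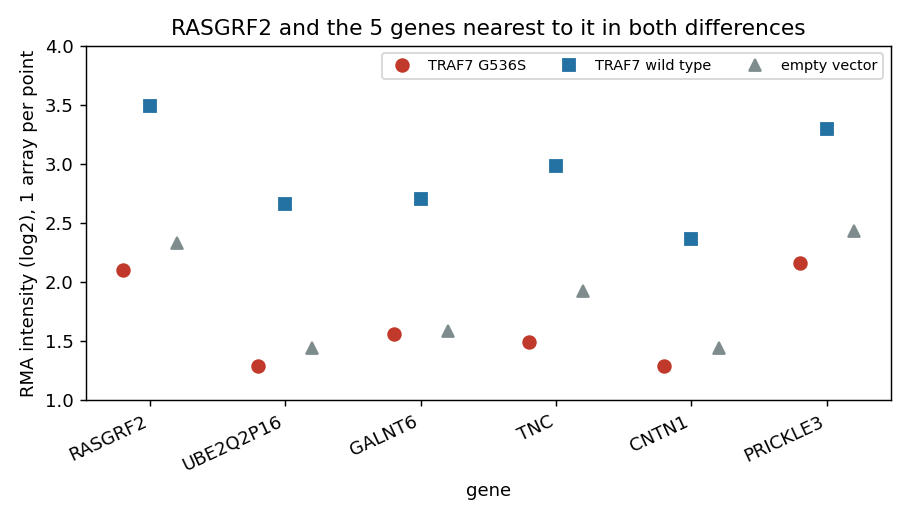
RMA intensity (log2) of RASGRF2 and of the 5 genes nearest to it in both differences from the empty vector, 1 point per array, with TRAF7 G536S, TRAF7 wild type and empty vector from left to right; the axis starts at 1. In each gene the TRAF7 wild type point is the highest, and the TRAF7 G536S point lies below the empty vector point.

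Neuronal markers were read because RASGRF2 is known from neurons. Of 7 measured, 3 passed the filter, and the log2 values of the 7 averaged 1.19 with TRAF7 G536S, 1.20 with TRAF7 wild type and 1.36 with the empty vector. None was 1.5-fold higher with TRAF7 wild type. The one marker of the list past 1.5-fold was RBFOX3, a neuronal splicing factor, which read 1.36 with TRAF7 G536S, 1.56 with TRAF7 wild type and 2.58 with the empty vector. It was high on the empty vector array alone, with differences from it of -1.22 and -1.02. The higher average of the markers on that array rests largely on RBFOX3. Over the 7 markers the median difference from the empty vector was -0.09 with TRAF7 G536S and -0.05 with TRAF7 wild type. The other markers that passed, SYT1 (1.62, 1.60 and 1.42) and DLG4 (1.36, 1.49 and 1.54), were above the filter level on each array. SYT1 was lowest with the empty vector and DLG4 highest. The presynaptic gene SNAP25 (0.95, 0.89 and 1.09) and the receptor subunit GRIN2B (0.84, 0.82 and 0.93) read under the filter level on each array.

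MSH3, a mismatch repair gene beside RASGRF2 on chromosome 5, did not show its pattern. It read 6.83 with TRAF7 G536S, 6.59 with TRAF7 wild type and 6.35 with the empty vector, and was highest on the TRAF7 G536S array. CKMT2, a mitochondrial creatine kinase on the other side, read 1.20, 1.21 and 1.10. Its values were under the filter level on each array, where differences are compressed. Beside RASAL2 on chromosome 1, the antisense gene RASAL2-AS1 read 1.12 with TRAF7 G536S, 1.55 with TRAF7 wild type and 1.02 with the empty vector. It was highest with TRAF7 wild type, the only array on which it exceeded the filter level. RASAL2 lay between its other values on that array. The measured neighbours of the remaining members, RASA1 included, differed by -0.37 to 0.50 over the 3 comparisons. Among them CCNH, a cyclin next to RASA1, read 7.80 with TRAF7 G536S, 7.84 with TRAF7 wild type and 7.53 with the empty vector.

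The rest of the pathway was read through 9 lists with 86 genes, of which 70 were measured and 54 passed the filter. Of the 54, 8 were at least 1.5-fold apart in some comparison, where 13.6% of all genes passing the filter were. Between TRAF7 wild type and empty vector 4 were higher and 0 lower, against 5.42% and 1.79% of the background. Between TRAF7 G536S and empty vector 2 were higher and 3 lower, against 6.07% and 2.08%. Between TRAF7 G536S and TRAF7 wild type 0 were higher and 3 lower, against 2.17% and 1.81%. After quantile normalization, and likewise after cyclic loess, the counts were 2 and 0, 1 and 3, and 0 and 4 in the same order. The background shares after quantile normalization were 3.1% and 3.42%, 3.15% and 4.45%, and 1.92% and 1.97%. After cyclic loess they were 3.27% and 3.1%, 3.47% and 3.95%, and 2.05% and 2.02%. The median difference over the 70 was 0.02, -0.03 and -0.04 in these comparisons.

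Among the other exchange factors, 1 of 4 measured passed the filter. This was RASGEF1A, which read 1.70 with TRAF7 G536S, 1.16 with TRAF7 wild type and 1.07 with the empty vector, and differed by 0.63 between TRAF7 G536S and empty vector. It passed through its TRAF7 G536S value alone, since the other two arrays lay under the filter level. Of the other GAPs 4 of 7 were measured, and 1 of the 3 passing the filter was past 1.5-fold. RASA3, a GAP that acts on RAP as well as RAS, read 2.17 with TRAF7 G536S, 2.71 with TRAF7 wild type and 2.91 with the empty vector. Its difference between TRAF7 G536S and empty vector was -0.74. Like RASAL2, it was lowest on the TRAF7 G536S array and highest on the empty vector array.

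Of the RAP and RAL exchange factors, which share the catalytic fold of the RAS exchange factors, 9 of 11 measured passed the filter and 1 was past 1.5-fold. RGL1, an exchange factor for RAL, read 2.05 with TRAF7 G536S, 2.46 with TRAF7 wild type and 2.70 with the empty vector, and differed by -0.65 between TRAF7 G536S and empty vector. RALGDS, the founding member of the RAL group, read 5.19, 5.46 and 5.54 in the same order.

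The RAS proteins themselves gave 4 measured genes of 6, of which 3 passed the filter. RRAS2, a RAS relative also called TC21, read 1.68 with TRAF7 G536S, 2.40 with TRAF7 wild type and 1.72 with the empty vector. It was high on the TRAF7 wild type array alone, as RASGRF2 was, with differences of 0.67 between TRAF7 wild type and empty vector and -0.71 between TRAF7 G536S and TRAF7 wild type. The first was 0.55 after quantile normalization, short of 1.5-fold, and the second was still -0.71. HRAS read 3.76 with TRAF7 G536S, 3.80 with TRAF7 wild type and 4.06 with the empty vector.

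Upstream of SOS, 13 of 16 receptors and adaptors were measured, 12 passed the filter and 1 was past 1.5-fold. The receptor kinase MET read 4.67 with TRAF7 G536S, 4.68 with TRAF7 wild type and 4.07 with the empty vector, with differences from the empty vector of 0.60 and 0.61. After quantile normalization these were 0.46 and 0.48, short of 1.5-fold. PTPN11, the phosphatase SHP2 that promotes RAS activation, read 7.30, 7.52 and 7.19, and GRB2, the adaptor that carries SOS, read 3.95, 4.01 and 3.92 in the same order. None of the 4 NF1 recruiters and RAS turnover genes that passed the filter was past 1.5-fold. SHOC2, a scaffold that favours RAF activation, read 4.80, 4.85 and 4.61, and SPRED1, which brings NF1 to the membrane, read 2.57, 2.43 and 2.25.

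None of the 7 measured genes of the calcium and diacylglycerol inputs, which feed the RASGRF and RASGRP proteins, was past 1.5-fold. PLCG1, which makes diacylglycerol below receptor kinases, read 5.23 with TRAF7 G536S, 5.37 with TRAF7 wild type and 5.38 with the empty vector. Of the 6 measured RAF-MEK-ERK kinases none was past 1.5-fold either, and MAP2K1, which encodes MEK1, read 5.46, 5.64 and 5.60.

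ERK output genes were all measured, 16 of 16, and 9 passed the filter. With TRAF7 wild type against the empty vector 2 were past 1.5-fold and higher, where 5.42% of the background were. With TRAF7 G536S against TRAF7 wild type the same 2 were lower, where 1.81% of the background were. Both differences use the same TRAF7 wild type array and do not support one another. SPRY1, a feedback inhibitor of RAS signalling, read 2.25 with TRAF7 G536S, 3.05 with TRAF7 wild type and 2.09 with the empty vector. FOSL1, an AP-1 subunit, read 1.62, 2.29 and 1.38. MYC differed in the other direction and with the other construct, at 5.58 with TRAF7 G536S, 6.16 with TRAF7 wild type and 6.37 with the empty vector, a difference of -0.79 between TRAF7 G536S and empty vector. Its difference between TRAF7 G536S and TRAF7 wild type, -0.58 as deposited and just short of 1.5-fold, was -0.64 after quantile normalization, past it. The list's median was -0.04 between TRAF7 wild type and empty vector and -0.05 between TRAF7 G536S and empty vector. The classical ERK feedback genes DUSP6 (0.97, 1.04 and 1.09) and SPRY4 (0.92, 0.86 and 0.97) were under the filter level on each array.

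**Figure D4:**
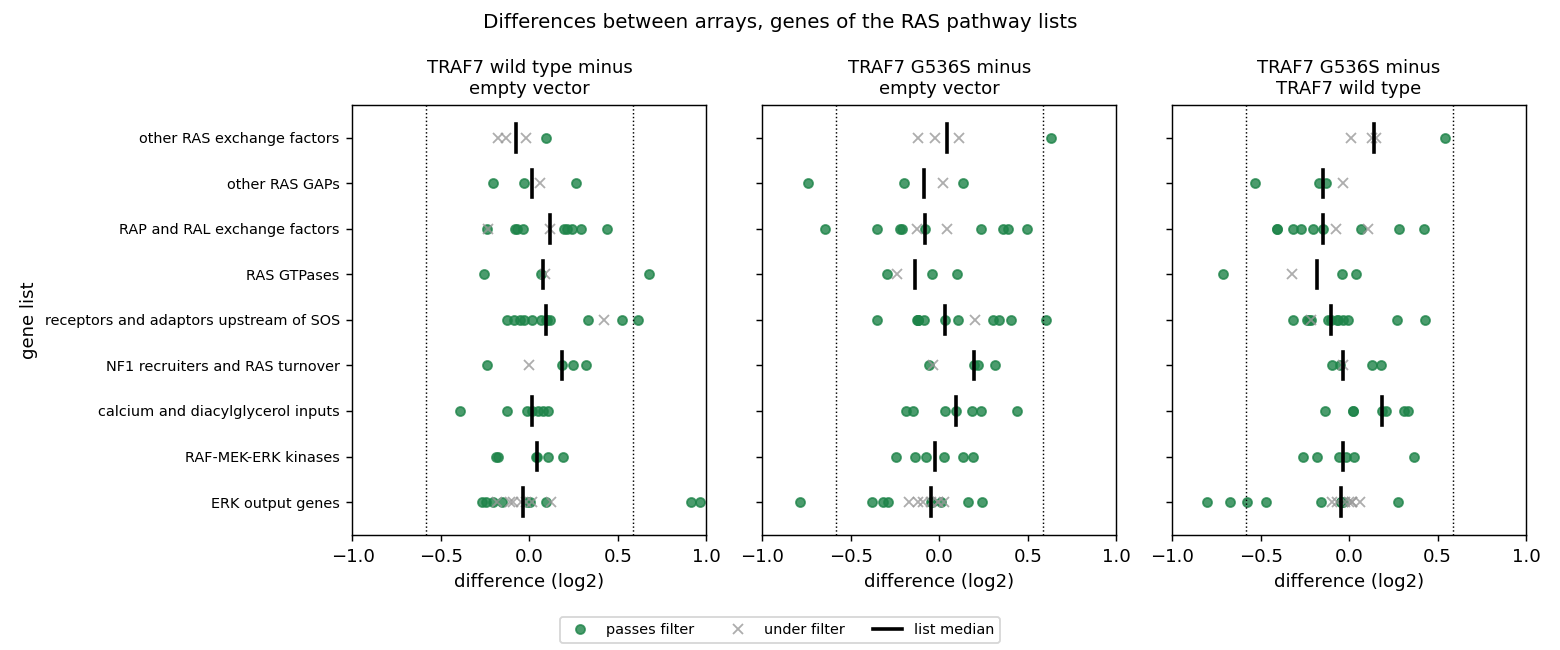
Log2 difference of 70 measured genes in 9 RAS pathway lists, 1 panel per comparison and 1 point per gene (circles pass the filter, crosses do not), with list medians as black bars and 1.5-fold as dotted lines. With TRAF7 wild type against the empty vector the points past 1.5-fold are RRAS2, MET, SPRY1 and FOSL1, all higher.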

How the data were processed

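Expression was measured on Affymetrix arrays from 300 ng of total RNA per sample, per the labels' protocols. The authors deposited log2 intensities per probe set made with RMA, as the submitters' processing notes name it. Which version was run, and on which array build, is not given in the sources used here. Base 2 was inferred from the highest value, 12.57. RMA compresses differences near background, and precision is limited by the number of arrays.

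Of 53617 probe sets, 23871 name 1 gene, with symbols updated through RefSeq (GRCh38.p14); a gene took its brightest probe set. Groups follow the labels, and a difference is one array minus another, counted past 1.5-fold and 2-fold. The filter was the median of gene means (1.21). No test between single arrays was possible. The counting was tested on simulated data.

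Members and lists were chosen with earlier results of these data known, and the promoter motifs and the promoters shown after the sequences or values were seen. Named genes are all members, TRAF7, list genes past 1.5-fold, the brightest of each pathway list, the 5 genes nearest to RASGRF2 and the members' neighbours, most of these as a range; markers and list genes given for context, such as GRB2, SPRED1, DUSP6 and SPRY4, were chosen after their values were seen. Alternatives were quantile normalization, median centring, cyclic loess, a floor at the 25th percentile (0.86), averaged probe sets per gene, a stricter filter (75th percentile, 2.87) and none. Normalization used R 4.3.3 with limma 3.58.1, figures matplotlib 3.10.9, and the rest pandas 2.3.3 and numpy 2.4.6 (Python 3.11.15).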

Additional observations from a re-analysis of the deposited data

Results flagged for a closer look

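For 12 of the genes given with their values, the 2 constructs lay on opposite sides of the empty vector. With 1 array per group the difference between the constructs was not tested. RASGRF2 differed from the empty vector by -0.23 with TRAF7 G536S and by 1.16 with TRAF7 wild type, and by -1.39 between TRAF7 G536S and TRAF7 wild type. The 5 genes nearest to RASGRF2 were chosen for the same pattern, and between TRAF7 G536S and TRAF7 wild type UBE2Q2P16 differed by -1.37, GALNT6 by -1.14, TNC by -1.49, CNTN1 by -1.08 and PRICKLE3 by -1.14. RRAS2 differed from the empty vector by -0.04 with TRAF7 G536S and by 0.67 with TRAF7 wild type, and by -0.71 between the constructs. For the others the differences were small: between TRAF7 G536S and TRAF7 wild type SOS1 differed by 0.19, MAP2K1 by -0.18, the markers COL1A1 and CD68 by -0.13 and -0.086, and RASGRP3, which is near background, by -0.14.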

How the results depend on the processing

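Under the filter at the 75th percentile the count of members at least 1.5-fold apart was 0 between TRAF7 wild type and empty vector and 0 between TRAF7 G536S and TRAF7 wild type, in place of 1 each, because RASGRF2, with a mean of 2.64, falls below 2.87. The count kept its value in all 3 comparisons under the other 6 alternatives. Averaging probe sets could not change it, since each member has 1, and the floor changed no value of RASGRF2. Under the 3 rescalings (quantile normalization, median centring and cyclic loess) the RASGRF2 difference ran from 1.01 to 1.19 between TRAF7 wild type and empty vector and from -1.40 to -1.38 between TRAF7 G536S and TRAF7 wild type. Of 81 member differences recomputed under these 3, 1 changed sign, that of SOS1 between TRAF7 wild type and empty vector under median centring (0.01, against -0.02 as deposited), and the largest move was 0.16. Quantile normalization moved the higher share of background genes past 1.5-fold from 75.1% to 47.5% for TRAF7 wild type and from 74.5% to 41.5% for TRAF7 G536S, both against the empty vector. Cyclic loess moved these shares to 51.3% and 46.8%, and median centring to 80.6% and 80%, so small differences from that array depend on the scaling. No paired analysis was possible because each group has 1 array.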
